A study of Mus musculus with 6 samples.

Results

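Complement components and regulators were followed through the cell types of the mouse retina. The 9 genes, of the 31053 in the deposited matrices, were taken by their symbols and not by any measured value. They comprise the C1q chains C1qa, C1qb and C1qc, the central components C3 and C4b, the regulators Cfi, Serping1 and Cd59a, and C3ar1, a receptor for a C3 fragment. The question was which retinal cell type holds the transcripts of each component, and whether their level differed between mice with oxygen-induced retinopathy (OIR) and control mice (Ctrl).

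Complement is a cascade of plasma and cell surface proteins that tags cells, debris and synapses for removal. The classical route starts with C1q, a complex of the C1qa, C1qb and C1qc chains. It passes through C4 to C3, the component on which all routes meet, and is held back by soluble and membrane-bound regulators. In the retina, C1q is known as a product of microglia, the resident immune cells, and C3 fragments are read by receptors on immune cells.

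The dataset was droplet single-cell RNA sequencing (scRNA-seq) of dissociated retinas taken at postnatal day (P) 17. OIR is a model of retinal neovascularisation. The 3 samples OIR-1 to OIR-3 came from pups that spent P7 to P12 in 75% oxygen, followed by 5 days in room air. The 3 control samples Ctrl-1 to Ctrl-3 came from pups kept in room air. Each of the 6 samples pooled the retinas of 2 mice, so every test below measures the spread between 3 pools in a group. The labels give no genotype, strain or sex, and they call the animals adult although they were sampled at P17.

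The labels name the tissue as retinal endothelial cells, but the cells were those of a whole retina. Of 38569 cells kept, 66.8% were rod-like and 195, or 0.506%, were vascular endothelial cell (VEC)-like. Cells were clustered without the complement genes and 13 classes were named from marker lists that held no complement gene. "X-like" below means that a cluster carried the markers of X, and a mixed immune cluster, led by Hmox1, Lgals3, Lyz2 and Cd52, carried microglial markers at a low depth of 1807 unique molecular identifiers (UMIs) per cell at the median, against 7809 in the microglia-like cluster. The samples held 5371 to 7470 kept cells with a median of 1449.5 to 4850 UMIs, and 46 to 66 of the barcodes in a sample occurred in another sample too. OIR-1 and Ctrl-1 stood apart from the other 4 samples with fewer rods and deeper cells, so the main results are also given for replicates 2 and 3 alone.

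A level below is in CPM, the UMIs of a gene per 1000000 UMIs of a sample's cells of one class. The kit counts the 3′ end of each molecule, so CPM does not scale with transcript length. Differences are log2 fold changes of OIR over control with a standard error (SE), from edgeR's quasi-likelihood test on the summed UMIs, with p-values adjusted by the Benjamini-Hochberg method over all genes tested in that class. To be called, a gene had to move by 0.25 or more on the log2 scale and to have an adjusted p below 0.05. The 9 genes gave 82 pairs of gene and class that could be fitted, of which 23 passed the filter on low counts, and 2 pairs were called. Over all genes, 1.46% of 65969 pairs were called. Both called pairs were C3, in cone bipolar-like and in rod bipolar-like cells, and both were higher in OIR.

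**Figure D1:**
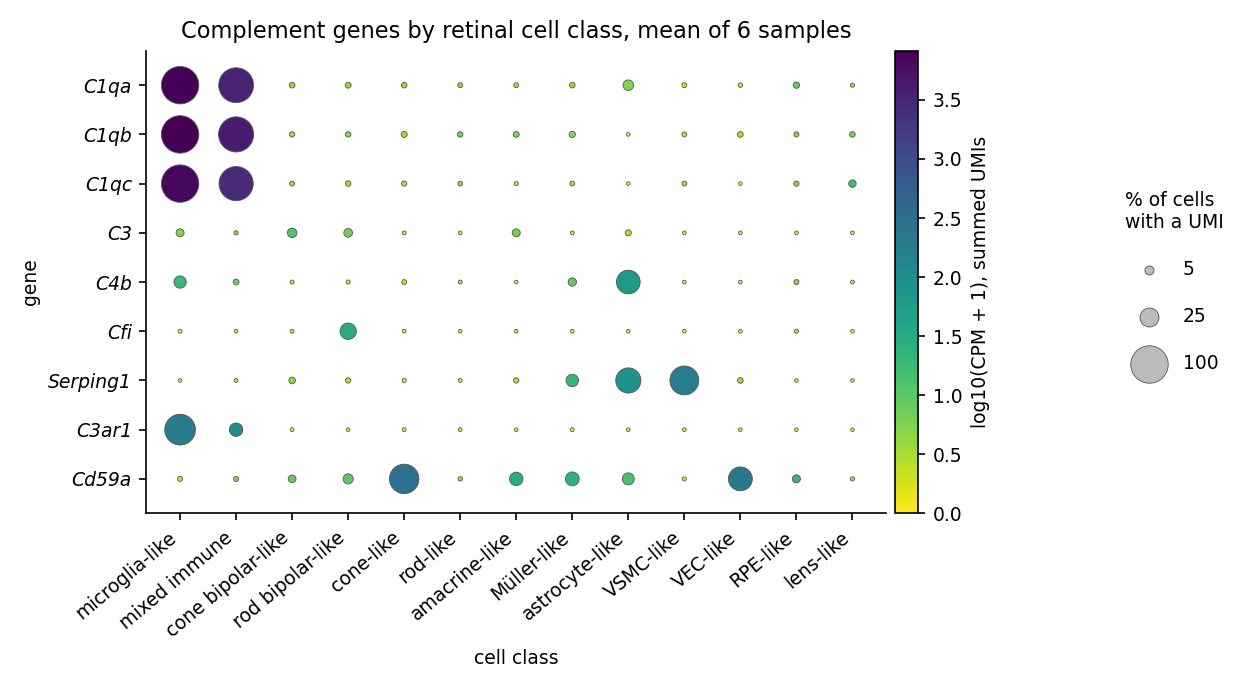
Transcripts of the 9 complement genes (rows) in the 13 cell classes (columns). Dot size gives the percent of cells with a UMI and colour gives log10(CPM + 1), both as the mean of 6 samples. C1qa, C1qb, C1qc and C3ar1 are densest in the microglia-like and mixed immune columns, Cfi in rod bipolar-like cells, Cd59a in cone-like cells, and C3 in both bipolar classes.

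The start-site sequences of the genes on which the results turn are shown here, from RefSeq promoters of build GRCm38.p6. Of the 9 genes, 5 had an entry. The C1q pair is shown because these genes lie next to each other and share a cell class, with the C1qb to C1qa cluster spanning 18.68 kb of chromosome 4. C3 is shown because it was called. Each run holds the 250 bases that end at the start site, on the minus strand, at chr4:136886201-136886450 for C1qb, chr4:136892915-136893164 for C1qc and chr17:57228137-57228386 for C3. Capitals mark every match, on either strand, to GAGGAA (PU.1 and other ETS factors), the NF-kB motif (GGG and CC with 5 free bases between), TTNNGNAA (C/EBP), TTCNNNGAA (STAT), the interferon-stimulated response element and TAATCC (CRX and OTX2), and overlapping matches run together.
C1qb: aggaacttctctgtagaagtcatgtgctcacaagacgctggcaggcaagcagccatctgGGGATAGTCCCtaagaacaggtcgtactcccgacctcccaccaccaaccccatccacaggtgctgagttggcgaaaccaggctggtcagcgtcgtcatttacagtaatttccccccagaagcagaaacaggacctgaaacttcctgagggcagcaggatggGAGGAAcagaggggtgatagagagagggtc
C1qc: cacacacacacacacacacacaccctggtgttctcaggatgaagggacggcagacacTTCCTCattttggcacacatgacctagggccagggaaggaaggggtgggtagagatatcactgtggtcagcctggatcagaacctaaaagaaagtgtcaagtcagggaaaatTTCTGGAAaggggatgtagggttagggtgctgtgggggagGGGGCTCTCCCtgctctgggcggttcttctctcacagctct
C3: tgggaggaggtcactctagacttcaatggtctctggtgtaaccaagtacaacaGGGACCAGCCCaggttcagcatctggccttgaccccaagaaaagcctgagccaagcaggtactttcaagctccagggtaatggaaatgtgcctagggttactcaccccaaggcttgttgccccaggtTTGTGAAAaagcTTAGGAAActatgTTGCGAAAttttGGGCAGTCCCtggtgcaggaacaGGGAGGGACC
The C3 run held the C/EBP letters at 3 positions, 70, 58 and 45 bases before the start site, and 2.62% of the 32851 promoters in the table held as many. It held the NF-kB letters at 4 positions, and 4.97% of promoters held as many. GAGGAA, which occurs in 23.2% of promoters, was in the C1qb run and the C1qc run and not in the C3 run. At least 1 match was held by 45.8% of promoters for NF-kB, 36.9% for C/EBP, 7.02% for STAT, 2.98% for the interferon-stimulated response element and 6.25% for TAATCC, and none of the latter 3 was in the runs shown. These matches describe letters in a window and say nothing of binding.

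C1qa, C1qb and C1qc encode the chains of the complex that binds immune complexes and tagged surfaces. Their transcripts lay in microglia-like cells, which held 78.9% ± 9.49, 77.1% ± 8.88 and 80.1% ± 8.63 (SD, n = 6 samples) of the C1qa, C1qb and C1qc UMIs. The mixed immune cluster held another 19.1%, 20.5% and 18.2%. In no sample did another class exceed 48.3 CPM of a C1q gene, while the lowest value in either immune class was 1488 CPM.

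In microglia-like cells the C1qa level was 8405, 7451 and 8378 CPM in OIR-1 to OIR-3 and 8290, 7316 and 7200 CPM in Ctrl-1 to Ctrl-3. The groups overlapped, with a log2 fold change of 0.11 (SE 0.23, edgeR adjusted p = 0.954). The C1qb level was 8682, 8342 and 7952 CPM in OIR and 8597, 7163 and 8703 CPM in control, and the groups overlapped here too (log2 fold change 0.05, SE 0.23, adjusted p = 0.987). The C1qc level was 6654, 7183 and 7421 CPM in OIR and 6404, 5771 and 6999 CPM in control. Its groups also overlapped, since OIR-1 lay below Ctrl-3 (log2 fold change 0.17, SE 0.22, adjusted p = 0.910). None of the C1q genes passed the test in this class, where 0.235% of 3402 genes were called in either direction. A missed threshold does not show equal levels, and the SE of each fold change bounds what could be seen.

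Other features of the microglia-like sums were read beside these values. Median depth was 10739, 9665 and 11795 UMIs per cell in OIR and 6911, 7005 and 5603 in control. The summed level of the 8 genes of the Müller list was 42073 to 51609 CPM in OIR and 16943 to 20711 CPM in control, with 7 of 8 genes detected and Aqp4 at 0. Most of it was Apoe, a lipid carrier that microglia also express, at 41440, 46060 and 50980 CPM in OIR and 16060, 19930 and 19660 CPM in control (log2 fold change 1.35, adjusted p = 0.0222). The perivascular macrophage list, with 7 of 7 genes detected, summed to 601, 0 and 1773 CPM in OIR and 1.70, 168 and 0 CPM in control. The part of these in the C1q values was not tested.

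In the mixed immune cluster, C1qc was at 3031, 4211 and 3417 CPM in OIR and 2661, 2039 and 1488 CPM in control. Every OIR value lay above every control value, as for 11.3% of the 2139 genes tested in this cluster, and the difference did not pass the test (log2 fold change 0.69, SE 0.29, adjusted p = 0.464). C1qa was at 3957, 4823 and 4265 CPM against 3601, 2777 and 1588 CPM, again without overlap (log2 fold change 0.61, SE 0.32, adjusted p = 0.579). C1qb was at 4680, 5565 and 4389 CPM against 4075, 3065 and 2376 CPM, also without overlap (0.53, SE 0.28, adjusted p = 0.587). OIR was thus above control for each chain, and none was called in a cluster where 0.0468% of genes were. The microglia list in these sums, with 10 of 10 genes detected, was at 9509, 10129 and 10411 CPM in OIR. In control it was at 9678, 7856 and 5764 CPM, so the groups overlapped. It fell from Ctrl-1 to Ctrl-3, as did each chain, and rose from OIR-1 to OIR-3, where each chain was highest in OIR-2. The Müller list in these sums was at 21301 to 30897 CPM in OIR and 5976 to 12044 CPM in control, without overlap and with 8 of 8 genes detected. The red blood cell list, with 5 of 5 genes, reached 133961 CPM in Ctrl-2 against 0 to 169 CPM in the other samples. The blood leukocyte list, with 10 of 12 genes and Ngp and Camp at 0, was at 108 to 6885 CPM in OIR, highest in OIR-1, and at 150 to 1963 CPM in control. The part of these lists in the C1q values of the cluster was not tested.

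The number of microglia-like cells was small. They made up 1.17%, 0.291% and 0.281% of kept cells in OIR and 1.13%, 0.372% and 0.484% in control. OIR minus control was -0.0819 percentage points, with p = 0.6 in a two-sided exact permutation test, which cannot go below 0.1 with 3 against 3. Joined with the mixed immune cluster, a choice made after the clusters were seen, the shares were 2.76%, 1.07% and 1.31% in OIR and 2.42%, 0.894% and 1.01% in control. The difference was then 0.272 points (exact permutation p = 0.5). Replicate 1 of each group had the highest share either way.

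The C1q transcripts outside the immune classes were few. Summed over the chains, they amounted to 12.05, 2.85 and 5.38 CPM in OIR and 25.5, 2.17 and 6.33 CPM in control, highest in the replicate 1 samples, which also had the most microglia-like cells. The split between chains was 34.9%, 36.3% and 28.8% for C1qa, C1qb and C1qc in microglia-like cells and 31.7%, 44.0% and 24.2% in rod-like cells. C1qb UMIs were found in 1.60%, 0.221% and 0.592% of rod-like cells in OIR and in 4.18%, 0.229% and 0.426% in control. C1qc UMIs in cone-like cells numbered 3, 0 and 0 in OIR and 34, 3 and 1 in control (log2 fold change -3.10, SE 0.81, adjusted p = 0.0827). Cone-like and rod-like cells had C1qc at 0 to 5.91 and at 0.202 to 9.73 CPM. The source of these UMIs was not tested.

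C3 is the component whose cleavage drives opsonisation and the later steps. Its transcripts lay in bipolar-like cells, the interneurons between photoreceptors and ganglion cells. Of 373 C3 UMIs in all, cone bipolar-like cells held 61.8% ± 10.1 (SD, n = 6 samples) and rod bipolar-like cells 26.2% ± 13.6. C3 was higher in OIR in both classes.

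In cone bipolar-like cells, 141, 25 and 29 C3 UMIs were counted in OIR-1 to OIR-3 and 31, 4 and 6 in Ctrl-1 to Ctrl-3. The C3 level was 21.0, 17.2 and 14.7 CPM in OIR and 3.26, 3.43 and 6.03 CPM in control, that is 17.6 ± 3.21 against 4.24 ± 1.56 CPM (SD, n = 3 each). The lowest OIR sample lay well above the highest control sample. The log2 fold change was 2.24 (SE 0.33, adjusted p = 0.00593), a 4.74-fold difference. Genes called higher in this class were 0.506% of the 10276 tested, and all OIR values lay above all control values for 11.1% of them.

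In rod bipolar-like cells, 56, 21 and 13 C3 UMIs were counted in OIR and 1, 2 and 3 in control. The C3 level was 11.8, 12.1 and 8.93 CPM in OIR and 0.183, 1.54 and 3.05 CPM in control (10.9 ± 1.74 against 1.59 ± 1.43 CPM, SD, n = 3 each). The groups did not overlap. The log2 fold change was 3.62 (SE 0.59, adjusted p = 0.00482), a fitted 12.3-fold difference that rests on 6 control UMIs. Called higher in this class were 1.25% of 9328 genes, and groups without overlap in that direction occurred for 11.6%. The size of the fold depended on Ctrl-1, the deepest control sample with 1 C3 UMI: without it the log2 fold change was 2.31 (adjusted p = 0.0284), and without Ctrl-3 it was 4.41 (adjusted p = 0.00619).

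With replicates 2 and 3 alone, the log2 fold change of C3 was 1.69 in cone bipolar-like cells (adjusted p = 0.0448) and 2.17 in rod bipolar-like cells (adjusted p = 0.0298). In this subset each control pool and no OIR pool had Xist above Y-linked RNA, so group cannot be told apart from that trait. The fit of this subset also called more pairs over all genes. With a term for Xist above Y-linked RNA in all samples, the OIR difference rests on Ctrl-1 as the only control. Leaving aside these fits, both C3 pairs were called under each alternative tried except 1. When each cell was thinned to 1000 UMIs, 11, 3 and 3 against 4, 1 and 2 C3 UMIs remained in cone bipolar-like cells and 2, 2 and 1 against 0, 1 and 0 in rod bipolar-like cells. The direction was kept and the test was not passed (log2 fold changes 1.59 and 2.24, adjusted p = 0.616 and 0.666).

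**Figure D2:**
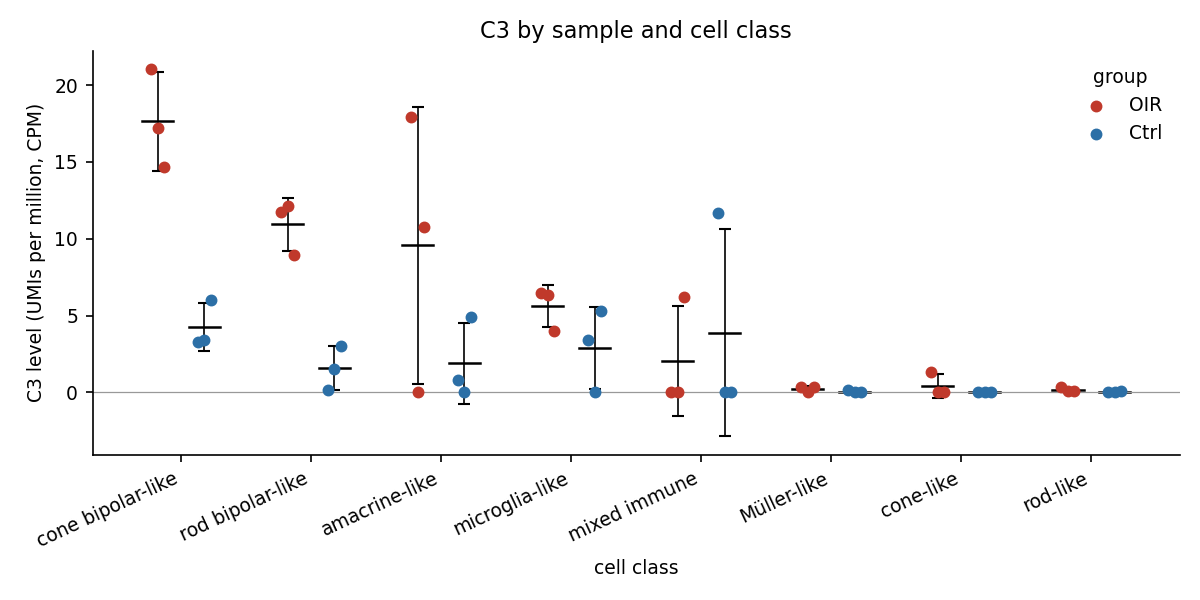
C3 level (CPM, vertical axis) in 8 cell classes, with 1 point per sample and bars for the mean and SD of 3 samples in each group. In cone bipolar-like and rod bipolar-like cells the OIR points sit between 8.93 and 21.0 CPM and the control points between 0.183 and 6.03 CPM, without overlap within a class.

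C3 was found in a minority of bipolar-like cells. In cone bipolar-like cells, 10.6%, 7.14% and 8.03% of cells held a C3 UMI in OIR and 1.88%, 2.30% and 3.19% in control. In rod bipolar-like cells the shares were 8.19%, 9.24% and 7.05% in OIR and 0.122%, 0.606% and 1.90% in control. Every OIR share exceeded every control share in both classes. For comparison, 5 of 12926 rod-like cells in OIR and 1 of 12842 in control held a C3 UMI, at a median depth of 1836 UMIs against 6390 in cone bipolar-like and 7641.5 in rod bipolar-like cells. Thinned to 1000 UMIs, the shares in cone bipolar-like cells were 1.19%, 1.43% and 1.06% in OIR and 0.254%, 0.595% and 1.10% in control, which overlap and lie near the level of 1 UMI. Median depth per cell was 7354, 6538.5 and 6957 UMIs in OIR and 5973, 7324.5 and 5488 in control for the cone bipolar class. Rod bipolar-like cells were deeper in each OIR sample, at 8443.5, 10280 and 9820.5 UMIs, than in control, at 6763, 8224 and 6421.5 UMIs, and the part of depth in the shares was not tested beyond the thinning.

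Most C3-positive cells held a single C3 UMI. This was so for 109 of 141 cone bipolar-like cells in OIR, with a highest count of 6, and for 63 of 75 rod bipolar-like cells, with a highest count of 3. Among the OIR cone bipolar-like cells, 4.96% of those with C3 and 2.83% of those without also held a C1q UMI. The corresponding shares in OIR rod bipolar-like cells were 6.67% and 2.98%. Cells among the highest Scrublet doublet scores were 4.26% of C3-positive and 7.59% of C3-negative cone bipolar-like cells in OIR, and 12% and 10.7% of rod bipolar-like cells. With those cells removed, C3 stayed called in both classes, with log2 fold changes of 2.35 and 3.48.

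The cone bipolar-like class comprised 6 clusters, which differed in their share of C3-positive cells. Over the OIR cells together, the cluster led by Igfn1 and Vsx1 had the highest share, 27% of 100 cells, with 30.0%, 23.5% and 15.4% in the OIR samples and 6%, 0% and 8.33% in control. It was not the highest in each sample, with exceptions in OIR-3, Ctrl-2 and Ctrl-3 below. The cluster led by Cck and Tnnt1 had 9.20%, 2.70% and 15.5% in OIR and 0.660%, 0% and 0% in control. The cluster led by Kcng4 and Epha7 had 6.87%, 8.45% and 4.88% in OIR and 2.98%, 0% and 0% in control. OIR lay above control in each sample of these clusters.
The cluster led by Adarb2 and Cntn5 had 12.4%, 7.27% and 9.59% in OIR and 1.19%, 6.25% and 3.03% in control, also without overlap. Groups overlapped in the remaining clusters. The cluster led by Slit2 and Irx6 had 15.0%, 3.70% and 3.57% in OIR and 3.24%, 4.76% and 16.7% in control, and the cluster led by Otor and Grik1 had 3.42%, 3.23% and 2.22% against 0.817%, 3.33% and 2.94%. These shares rest on 12 to 367 cells in a sample and cluster, so a share of 0% in a control sample is also what a low share would give. Depth differed between clusters too. Median UMIs relative to a cell's own sample were highest in the Igfn1 and Vsx1 cluster, at 1.94, and lowest in the Otor and Grik1 cluster, at 1.14. How many other genes separate the groups in this way within a cluster was not counted. The differences between clusters, and the part of depth in them, were not tested.

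**Figure D3:**
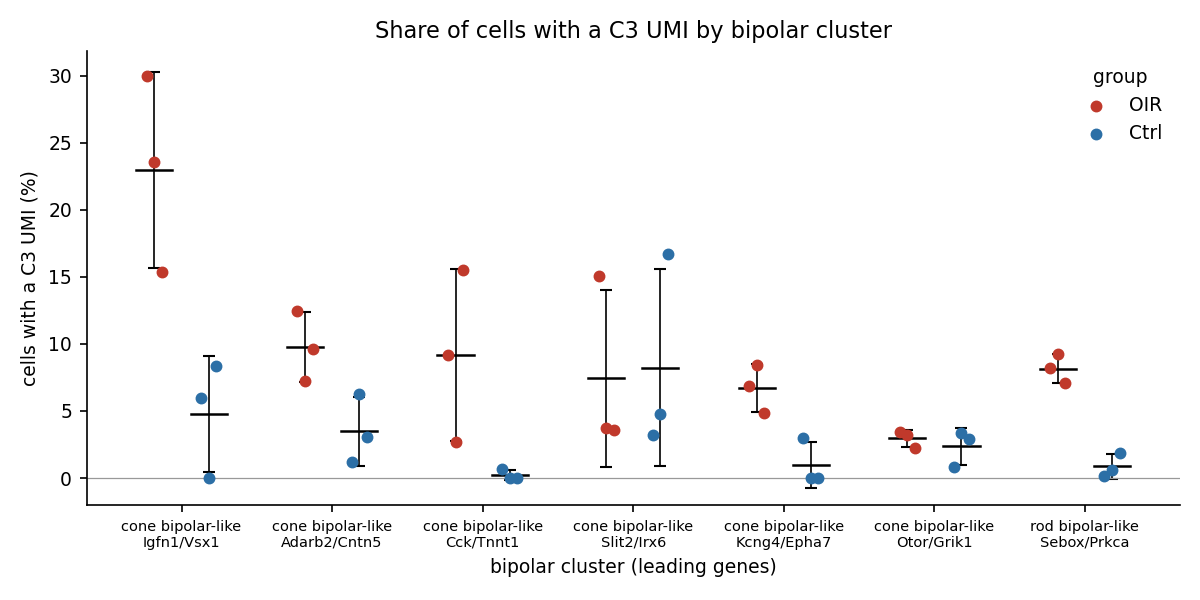
Percent of cells with a C3 UMI (vertical axis) in the bipolar-like clusters, named by their leading genes, with 1 point per sample, the groups in 2 colours, and bars for the mean and SD of 3 samples. The Igfn1 and Vsx1 cluster reaches 30.0% in OIR-1, and the Slit2 and Irx6 and the Otor and Grik1 clusters show overlapping groups.

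Markers of other cells in the bipolar-like sums were read beside C3. The microglia list was detected with 10 of 10 genes at 9.61 to 16.9 CPM in OIR and 2.57 to 28.9 CPM in control cone bipolar-like cells, and at 6.34 to 22.5 and 3.05 to 28.4 CPM in rod bipolar-like cells, and these ranges overlap. C3 in microglia-like cells themselves came to 5, 1 and 1 UMIs in OIR and 2, 0 and 1 in control. In rod bipolar-like cells the astrocyte list moved with C3, at 211 to 363 CPM in OIR and 85.3 to 109 CPM in control, with 5 of 7 genes detected and Pax2 and Igf2 at 0. It was mostly Aldoc, a glycolytic enzyme, while Gfap, the intermediate filament of astrocytes, was at 2.31, 0 and 0 CPM in OIR and 0.550, 0 and 0 CPM in control. The cone bipolar list moved too, at 5816 to 7121 CPM in OIR and 4378 to 4710 CPM in control, with 8 of 8 genes detected. Of its genes, Isl1, which rod bipolar cells also express, was at 2440 to 2861 CPM against 1725 to 1947 CPM. Scgn was at 2.52, 12.1 and 12.4 CPM in OIR and 3.85, 3.08 and 3.05 CPM in control, and Lhx4 at 89.2, 151 and 198 CPM against 74.8, 127 and 114 CPM, and both overlapped. Grik1, which marks OFF cone bipolar cells, was at 26.8 to 34.0 CPM in OIR and 28.5 to 36.9 CPM in control. The part of these lists in the C3 difference was not tested.

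C3 elsewhere was scarce. Amacrine-like cells held 5, 0 and 2 C3 UMIs in OIR and 1, 0 and 1 in control, Müller-like cells 3, 0 and 1 against 1, 0 and 0, and VEC-like cells none in any sample. The VEC-like counts are small, so that 3 UMIs would have been from 2.66 CPM in Ctrl-1 to 693 CPM in OIR-3, and C3 was not detectable there at this depth. By mean level in OIR the order was cone bipolar-like (17.6 ± 3.21 CPM), rod bipolar-like (10.9 ± 1.74 CPM), amacrine-like (9.57 ± 9.02 CPM) and microglia-like (5.63 ± 1.39 CPM), and the amacrine-like level did not differ from either neighbour beyond its spread.

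C4b encodes complement C4, which is cleaved after C1q binds and helps to form the enzyme that cleaves C3. Its 483 UMIs were spread over several classes, and no pair with C4b was called. Müller-like cells held 284 of them and rod-like cells, the most numerous class, 42, at a mean of 0.714 CPM. As means of the shares within each sample, these were 33.0% ± 28.2 and 25.6% ± 20.9 (SD, n = 6 samples). Those means weigh samples equally, from 286 C4b UMIs in OIR-1 to 2 in Ctrl-3. After thinning to 1000 UMIs, rod-like cells had the largest mean of per-sample shares, 46.7%, again with samples weighed equally. A near-identical gene, C4a, lies 65.21 kb away and is not among the genes of the matrices, so reads of C4a could count as C4b or be dropped as ambiguous. By mean level over 6 samples, astrocyte-like cells came first, at 63.8 ± 43.3 CPM, followed by microglia-like cells at 18.2 ± 16.4 CPM and Müller-like cells at 7.35 ± 9.82 CPM, and neighbours in this order overlapped within their SD.

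In Müller-like cells, the radial glia of the retina, 199, 11 and 6 C4b UMIs were counted in OIR and 64, 4 and 0 in control. The C4b level was 25.7, 3.45 and 1.95 CPM in OIR and 11.4, 1.69 and 0 CPM in control. Replicate 1 was highest in both groups, and the groups overlapped (log2 fold change 0.98, SE 0.92, adjusted p = 0.691). Without OIR-1 the log2 fold change was -1.13. In this class 2.50% of 11531 genes were called in either direction.

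In astrocyte-like cells C4b was at 129, 88.8 and 64.7 CPM in OIR and 42.7, 57.8 and 0 CPM in control. Each OIR sample was above each control sample, but Ctrl-2 and Ctrl-3 held 2 and 1 astrocyte-like cells, and no test was made. In microglia-like cells C4b UMIs numbered 30, 1 and 9 in OIR and 1, 3 and 1 in control. The groups overlapped in CPM, because Ctrl-2 at 21.0 CPM lay above OIR-2 at 6.37 CPM (log2 fold change 2.39, SE 0.78, adjusted p = 0.286). Without the filter on low counts this pair was called (log2 fold change 2.43, adjusted p = 0.0470), in a fit that also called more pairs over all genes.

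Cfi encodes factor I, the protease that inactivates C3b and C4b. Of its 494 UMIs, 480 lay in rod bipolar-like cells, that is 97.0% ± 3.12 (SD, n = 6 samples), the highest share of any of the 9 genes in 1 class. In rod-like cells 4 of 12926 cells in OIR and 0 of 12842 in control held a Cfi UMI.
In rod bipolar-like cells the Cfi level was 46.0, 30.0 and 32.3 CPM in OIR and 19.1, 26.9 and 23.4 CPM in control. The OIR samples lay above the control samples by little, since OIR-2 and Ctrl-2 were 30.0 and 26.9 CPM. Groups without overlap in that direction occurred for 11.6% of 9328 genes in this class, and 1.25% were called higher. The mean was 36.1 ± 8.64 against 23.1 ± 3.93 CPM, and the difference did not pass the test (log2 fold change 0.71, SE 0.24, adjusted p = 0.156). Without the filter on low counts it did (adjusted p = 0.0400), in a fit that also called more pairs over all genes.
A Cfi UMI was held by 24.6%, 21.7% and 22.4% of rod bipolar-like cells in OIR and 11.1%, 16.97% and 13.3% in control. Thinned to 1000 UMIs the shares were 4.06%, 1.70% and 4.58% in OIR and 1.84%, 1.82% and 4.49% in control, and the groups overlapped. C3 and Cfi were found together in 23 of 914 rod bipolar-like cells in OIR, where 75 cells held C3 and 216 held Cfi. They were found together in 0 of 1142 cells in control, where 5 cells held C3 and 140 held Cfi. Whether C3 and Cfi coincide more often than their separate shares would give was not tested.

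Serping1 encodes the C1 inhibitor, which stops the proteases that act with C1q. Müller-like cells held 63.8% ± 12.6 (SD, n = 6 samples) of the 943 Serping1 UMIs. Vascular smooth muscle cell (VSMC)-like cells held 13.3% ± 11.3, cone bipolar-like cells 8.91% ± 5.55 and astrocyte-like cells 7.06% ± 6.94. The Serping1 level was highest in VSMC-like cells at 181 ± 182 CPM over 6 samples. Astrocyte-like cells followed at 81.0 ± 79.0 CPM, and these levels overlap within their SD. The VSMC-like cluster also had Col1a1, a fibroblast marker, among its leading genes, and fibroblasts were not set apart. In microglia-like cells no Serping1 UMI was counted, and 3 UMIs would have been 3.90 CPM in OIR-1 and up to 21.0 CPM in Ctrl-2.
In Müller-like cells the Serping1 level was 34.4, 24.5 and 12.7 CPM in OIR and 28.8, 10.1 and 13.4 CPM in control. The groups overlapped (log2 fold change 0.34, SE 0.41, adjusted p = 0.775). The level was 172, 91.4 and 534 CPM in OIR and 178, 53.5 and 55.9 CPM in control VSMC-like cells, from 5, 2 and 5 cells and from 63, 5 and 5 cells. It was 209, 107 and 108 CPM against 62.4, 0 and 0 CPM in astrocyte-like cells. Neither class had enough cells for a test.

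Cd59a encodes a membrane-anchored protein that blocks assembly of the membrane attack complex. Of its 5548 UMIs, cone-like cells held 74.9% ± 5.42 (SD, n = 6 samples). By mean level over 6 samples, cone-like cells came first at 276 ± 47.4 CPM, followed by VEC-like cells at 217 ± 269 CPM. These levels overlap within their SD. Pooled over samples, a Cd59a UMI was held by 63.0% of VEC-like and 67.4% of cone-like cells in control. In OIR it was held by 23.3% of 30 VEC-like and 55.4% of 805 cone-like cells. The related gene Cd59b ends 4.61 kb from Cd59a.
In cone-like cells, the Cd59a level was 260, 238 and 213 CPM in OIR-1 to OIR-3 and 306, 305 and 337 CPM in Ctrl-1 to Ctrl-3. All OIR samples lay below all control samples, as for 5.70% of 9451 genes in this class, with means of 237 ± 23.6 and 316 ± 18.4 CPM. The difference did not pass the test (log2 fold change -0.47, SE 0.14, adjusted p = 0.143), in a class where 0.402% of genes were called lower. With replicates 2 and 3 alone it did, at a log2 fold change of -0.60 (adjusted p = 0.0235), in a fit where the pairs called over all genes and classes rose from 964 to 4130. In that subset, group again cannot be told apart from Xist above Y-linked RNA. A Cd59a UMI was held by 60.5%, 56.2% and 45.6% of cone-like cells in OIR and 66.5%, 71.0% and 68.8% in control. After thinning to 1000 UMIs the shares were 21.0%, 17.7% and 17.3% against 22.2%, 29.5% and 28.3%, with OIR lower in each comparison of samples. In rod-like cells the unthinned shares were 0.196% to 1.22%.

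Cd59a was in the same order in 3 other classes. In cone bipolar-like cells it was at 5.67, 2.75 and 3.04 CPM in OIR and 17.01, 6.003 and 8.045 CPM in control. The groups did not overlap, as for 6.57% of genes in that direction, and the test was not passed (log2 fold change -1.52, SE 0.42, adjusted p = 0.127). Same-numbered samples correlated positively in this class, as in some others, and with the replicate block Cd59a was called (log2 fold change -1.51, SE 0.32, adjusted p = 0.00462). Without the filter on low counts it was called too (log2 fold change -1.53, adjusted p = 0.00332), in a fit that also called more pairs over all genes. In Müller-like cells it was at 17.8, 22.6 and 19.9 CPM in OIR and 25.4, 31.2 and 27.4 CPM in control, without overlap, as for 6.43% of genes (log2 fold change -0.55, SE 0.17, adjusted p = 0.131). The Müller-like class joins 2 clusters. In the one with more UMIs per cell, with 1152 OIR and 1033 control cells, the mean Cd59a level was 21.0 CPM in OIR and 30.3 CPM in control, and in the other, with 864 and 416 cells, it was 15.5 against 9.78 CPM. The cone list in the cone bipolar-like sums, whose cells hold most Cd59a, was at 604 to 1015 CPM in OIR and 486 to 1673 CPM in control with 7 of 7 genes detected. Lower in OIR without overlap there were the VEC list, at 33.4 to 59.1 CPM against 63.4 to 86.0 CPM with 9 of 9 genes detected, the red blood cell list, at 2.53 to 11.0 CPM against 18.0 to 76.9 CPM with 5 of 5, and the ganglion list, at 7.91 to 9.61 CPM against 16.1 to 24.0 CPM with 7 of 8 and Pou4f2 at 0. VEC-like cells themselves hold Cd59a, at 104 to 344 CPM in control. The part of these lists in the Cd59a values was not tested. In RPE-like cells, from the retinal pigment epithelium, it was at 19.9, 0 and 0 CPM in OIR and 33.9, 31.3 and 33.5 CPM in control, from 1, 0 and 0 UMIs against 3, 7 and 1. These groups did not overlap, as for 3.22% of 1833 genes there, and the pair did not pass the filter on low counts. VEC-like cells held 6, 6 and 0 Cd59a UMIs in OIR and 387, 6 and 7 in control, from 25, 2 and 3 and from 145, 4 and 16 cells.

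C3ar1 encodes the receptor of the C3a fragment. Microglia-like cells held 73.0% ± 20.8 (SD, n = 6 samples) of its 574 UMIs and the mixed immune cluster held 19.6% ± 18.6. In rod-like cells it was at 0 to 0.736 CPM.
In microglia-like cells the C3ar1 level was 274, 178 and 233 CPM in OIR and 162, 224 and 89.7 CPM in control. The groups overlapped, because Ctrl-2 lay above OIR-2 (log2 fold change 0.61, SE 0.30, adjusted p = 0.629). C3ar1 UMIs were held by 71.8%, 87.5% and 85.7% of cells in OIR and 51.9%, 70.0% and 35.3% in control, in cells that were also deeper in OIR. Thinned to 1000 UMIs, the shares were 26.8%, 18.8% and 33.3% against 17.3%, 10.0% and 11.8%.
In the mixed immune cluster the C3ar1 level was 88.4, 353 and 74.3 CPM in OIR and 31.1, 75.1 and 37.5 CPM in control. OIR-2 stood above the rest and OIR-3 lay just below Ctrl-2 (log2 fold change 1.84, SE 0.69, adjusted p = 0.402). Without the filter on low counts the pair was called (log2 fold change 2.00, adjusted p = 0.00584), in a fit that also called more pairs over all genes. With cells thinned to 1000 UMIs the direction turned (log2 fold change -0.042).

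**Figure D4:**
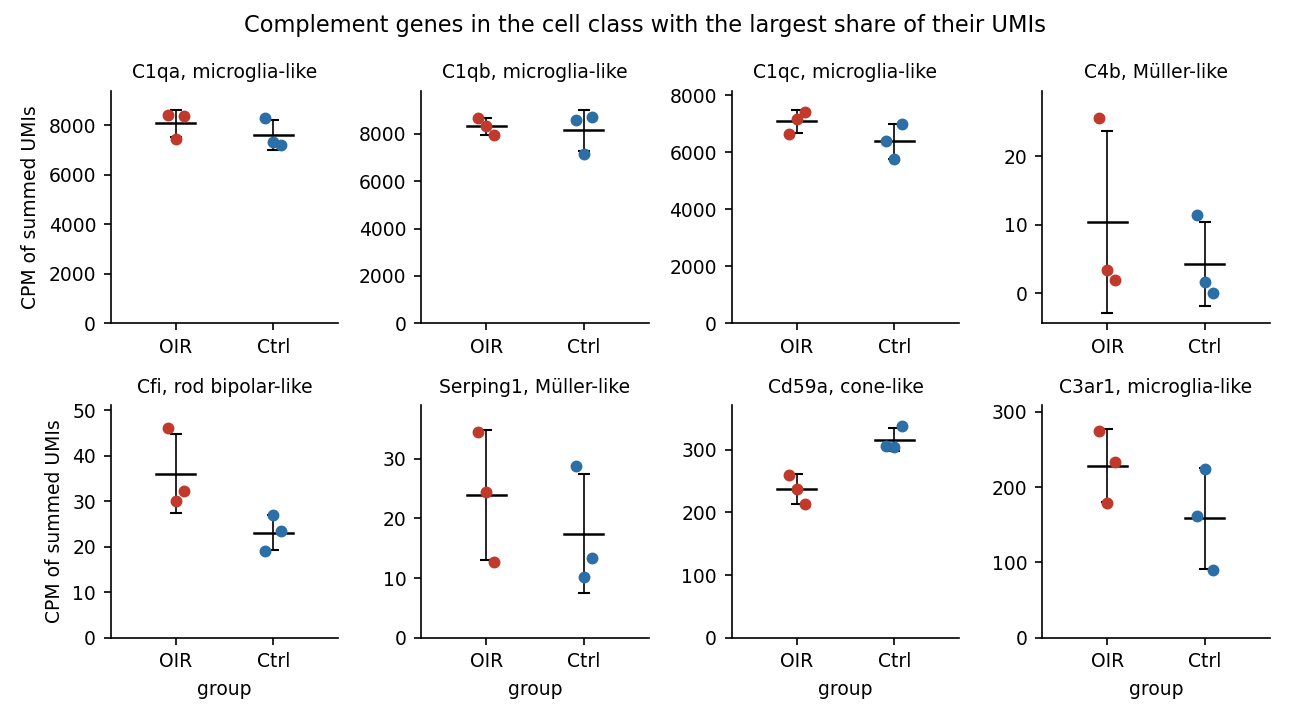
Level in CPM (vertical axis) of 8 complement genes in the class where each is discussed, with 1 point per sample and bars for the mean and SD of 3 samples per group. The C1q groups overlap in microglia-like cells, Cfi lies at 30.0 to 46.0 CPM in OIR and 19.1 to 26.9 CPM in control, and Cd59a at 213 to 260 CPM in OIR and 305 to 337 CPM in control.

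**Figure D5:**
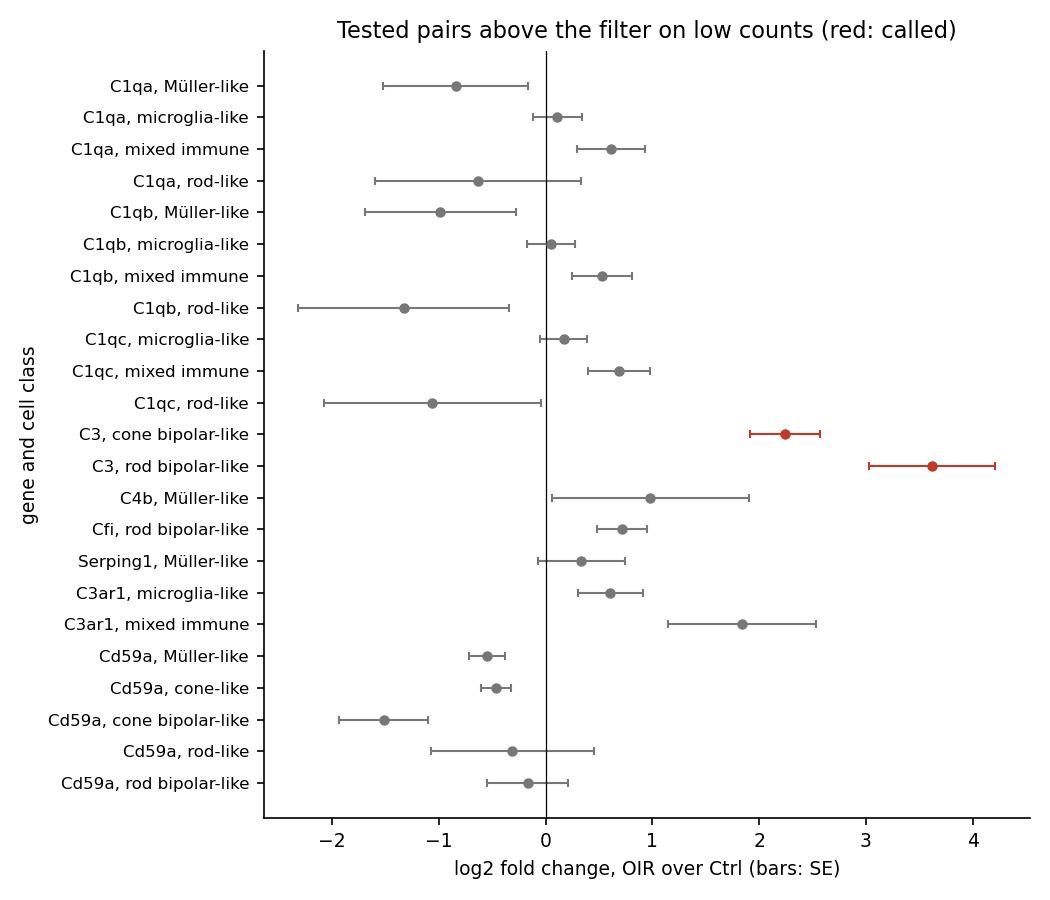
Log2 fold change of OIR over control with its SE (horizontal axis) for the 23 pairs of gene and class that passed the filter on low counts. The called pairs, in red, are C3 in rod bipolar-like (3.62) and cone bipolar-like cells (2.24).

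The rest of the pathway was read from lists of 53 further genes, of which 51 were in the matrices and 20 passed the filter in at least 1 class. Of their 63 pairs, 2 were called, 1 in each direction, beside 1.46% of all pairs. Colec12, a scavenger receptor of the collectin family, fell in Müller-like cells, at 1.03, 0.941 and 0.651 CPM in OIR and 4.44, 7.17 and 6.09 CPM in control. The groups did not overlap, as for 6.43% of genes in that direction, and counts were 2 to 25 UMIs per sample (log2 fold change -2.64, SE 0.42, adjusted p = 0.0125), in a class where 1.01% of genes were called lower. This call was lost in 4 of the alternative fits, and the direction was kept in all of them. The highest level of Colec12 was in VSMC-like cells, at 117 ± 38.4 CPM (SD, n = 6 samples). There it was at 60.9 to 146 CPM in OIR and 89.1 to 168 CPM in control, which overlap. Csmd3, a large membrane protein with complement control domains, rose in rod bipolar-like cells, at 24.6, 26.5 and 37.1 CPM in OIR and 9.72, 13.1 and 5.08 CPM in control. Its groups did not overlap either, as for 11.6% of genes in this class, where 1.25% were called higher (log2 fold change 1.52, SE 0.27, adjusted p = 0.00906). The highest level of Csmd3 was in cone bipolar-like cells, at 48.2 ± 16.2 CPM (SD, n = 6 samples). There it was at 60.9, 61.9 and 44.5 CPM in OIR and 58.0, 44.6 and 19.1 CPM in control. These groups overlapped, and the pair was not called (log2 fold change 0.29, SE 0.27, adjusted p = 0.733).
By class, the median log2 fold change of the list genes that passed was 0.02 over 13 genes in Müller-like cells, beside -0.01 over all genes there. It was 0.27 over 10 genes in rod-like cells, beside 0.00082, and 0.02 over 8 genes in microglia-like cells, beside -0.0036.

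The wider genes with the highest levels lay in other classes than the bipolar-like cells. Clu, an extracellular chaperone that restrains the terminal complex, was highest in retinal pigment epithelium (RPE)-like cells at 6264 ± 1564 CPM (SD, n = 6 samples), as was C2, a C3 convertase subunit, at 45.0 ± 27.6 CPM. Vtn, which binds the terminal complex, was highest in VSMC-like cells at 2208 ± 1540 CPM, as was C1s1, a C1 protease, at 134 ± 148 CPM. The receptor chains Itgam and Itgb2 were highest in microglia-like cells at 409 ± 130 and 204 ± 7.67 CPM, as was Cfb, a convertase subunit of the alternative route, at 14.6 ± 13.4 CPM. Cd93 was highest in VEC-like cells at 846 ± 529 CPM and Cfp, which stabilises that convertase, in lens-like cells at 11.1 ± 13.8 CPM. That Cfp level rested on 0, 0 and 4 UMIs in OIR and 0, 2 and 1 in control, of 619 Cfp UMIs in all. Of the terminal genes, C8g reached 3.97 ± 4.52 CPM in astrocyte-like cells, from at most 3 UMIs in a sample, of 257 in all. Both Cfp and C8g passed the filter on low counts only in Müller-like and rod-like cells. C8b and C8a had 6 and 2 UMIs in all, and C6, C7 and C9 had none.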

How the data were processed

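Retinas of OIR and control mice at P17 were profiled with the 10x Genomics 3′ v3 kit on a NovaSeq system, with 3 pools of 2 mice per group. The authors deposited filtered matrices of UMI counts as whole numbers without normalization, per the file headers from software version 3.1.0. The labels name build mm10, and a count of UMIs assigned to a gene cannot separate near-identical copies such as C4b and C4a. Total UMIs were 15788524 to 42606878 per sample.

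Cells with 500 to 5000 detected genes and at most 20% mitochondrial UMIs were kept, as in the study. They were integrated with Seurat 5.3.0 (2000 variable genes without the complement genes, 15 components, 20 neighbours, Louvain at resolution 0.5). Clusters were named from fixed marker lists, with 1 exception. The mixed immune cluster fitted the microglia list best and was set apart because it also held 5 blood leukocyte markers. That rule was chosen after the clusters were seen. Scrublet marked 166 barcodes in OIR-1 and 0 in the other samples, which is too few, so no doublets were removed and the highest scores were removed as an alternative.

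UMIs were summed per sample and class. A percentage of a gene's UMIs in a class is the mean of the shares within the 6 samples. edgeR 4.0.16 (R 4.3.3; TMM, filterByExpr, quasi-likelihood test, Benjamini-Hochberg adjustment) compared 3 OIR with 3 control sums in each of 11 classes. A class needed 10 cells in every sample, except microglia-like, RPE-like and VEC-like cells. Where the filter would have dropped one of the 9 genes, it was fitted all the same and adjusted with the rest. The statistics were tested on simulated data. CPM divides by the UMIs of the class, and counting intervals cover counting error only. Exact permutation tests used SciPy 1.17.1. Replicate numbers are shared between groups in the labels. Same-numbered samples deviated together in cone bipolar-like cells (correlations 0.347, 0.139 and 0.195), rod-like cells (0.484, 0.246 and 0.357) and RPE-like cells (0.111, 0.243 and 0.151). Correlations were also positive in every pair of rod bipolar-like (0.303, 0.0856 and 0.162), cone-like (0.212, 0.0979 and 0.0426) and lens-like cells (0.106, 0.0188 and 0.101). Each of the other tested classes had a negative pair.

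The 9 genes are described in the classes with most of their UMIs or with their highest levels, and other pairs only in part. Of the pairs not described, OIR lay above control without overlap for Serping1 in rod bipolar-like, C4b in cone-like and mixed immune, and C3ar1 in Müller-like cells. Each was below the filter on low counts and was not called. Such non-overlap occurred for 11.6%, 11.4%, 11.3% and 14.0% of genes in these classes. From the wider lists, called genes and up to 4 per role with the highest mean CPM are named, and for each of the 9 genes the 3 with the highest correlation. A gene of the wider lists that this rule would name is not reported here. These genes, lists and markers were chosen with earlier results of these data known. Alternatives were DESeq2 1.42.0, no filter on low counts, leaving out each sample, a replicate block, Leiden clusters without integration, complement genes kept in clustering, at most 10% mitochondrial UMIs, cells above 5000 genes retained, cells thinned to 1000 UMIs (35409 of 38569 cells had as many), a term for Xist above Y-linked RNA, and replicates 2 and 3 alone. Xist exceeded Y-linked RNA in Ctrl-2 and Ctrl-3 and in no other pool. With replicates 2 and 3 alone, this trait therefore coincides with group. With the Xist term, the OIR difference rests on Ctrl-1 as the only control. Start-site sequences came from RefSeq on GRCm38.p6.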

Additional observations from a re-analysis of the deposited data

Results flagged for a closer look

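The order of OIR and control for C1qc was opposite in 2 sums. In the mixed immune cluster every OIR sample lay above every control sample, as for 11.3% of the genes tested there, and the mean level was 1490 CPM higher in OIR. In cone-like cells every OIR sample lay below every control sample, as for 5.70% of genes there, and OIR minus control was -2.75 CPM. The difference between these directions was not tested, and neither passed the main edgeR test. Without the filter on low counts C1qc in cone-like cells was called (log2 fold change -3.04, adjusted p = 0.0121), in a fit that also called more pairs over all genes. The cone-like counts were 0 to 34 UMIs per sample, with 34 of the 38 control UMIs in Ctrl-1, and the pair was below that filter. C1qc was at 0 to 5.9 CPM in cone-like cells, beside 0.20 to 9.7 CPM in rod-like cells.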

How the results depend on the processing

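The number of pairs called among the 9 genes was 7 without the filter on low counts, 4 with the replicate block, 0 with cells thinned to 1000 UMIs, 4 with replicates 2 and 3 alone and 2 to 3 with 1 sample left out. For the wider lists it was 6 with DESeq2, 10 without the filter, 9 with the replicate block, 1 with thinned cells, 10 with replicates 2 and 3 alone and 1 to 4 with 1 sample left out (4 without Ctrl-1). Counts are not given for the Xist term, where the OIR difference rests on Ctrl-1 as the only control. With replicates 2 and 3 alone, group cannot be told apart from Xist above Y-linked RNA. Over all genes, 964 pairs became 1527 with DESeq2, 2899 without the filter, 2922 with the replicate block, 423 with thinned cells, 4130 with replicates 2 and 3 alone and 368 to 2387 with 1 sample left out, the highest without Ctrl-1. The causes were not tested, except that thinning removes counts by construction.

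The replicate block added C1qc in cone-like cells and Cd59a in cone bipolar-like cells to the C3 pairs, whose log2 fold changes were 2.35 and 3.65 with it. Same-numbered samples correlated positively in every pair of some classes and not of others. What they share beyond a number is not given by the labels.

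The microglia-like share difference ranged from -0.377 to 0.153 percentage points with 1 sample left out, reversed without OIR-2, OIR-3 or Ctrl-1, and was 0.272 with the mixed immune cluster joined. Thinned to 1000 UMIs, microglia-like cells held 54.5%, 49.7% and 55.7% of C1qa, C1qb and C1qc UMIs. Cone-like cells held 68.2% of Cd59a UMIs at a mitochondrial limit of 10% and 65.9% without an upper gene limit. Without that limit microglia-like and mixed immune cells formed 1 cluster and gave no microglia-like value. The cluster led by Optc and Crhbp then stayed unnamed, and no cluster was astrocyte-like. Leiden clusters gave no astrocyte-like class either, and Gfap and Optc were among the leading genes of the VSMC-like cluster there. The astrocyte-like levels of C4b and Serping1 thus rest on the main naming of 56 cells. Log2 fold changes that turned were Serping1 in Müller-like cells (-0.26 with the Xist term, -0.11 to 1.04 with 1 sample left out), C4b there (-1.13 to 3.53), C3ar1 in the mixed immune cluster (-0.042 thinned), and C1qa (-0.12) and C1qb (-0.13) in microglia-like cells with the Xist term, with C1qb at -0.079 to 0.16 with 1 sample left out. None of these was called in the main test. Depth limits C3, C4b and Cfi, which rest on 373, 483 and 494 UMIs, and the classes with under 10 cells in a sample.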

Other observations

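The genes most like each of the 9 across 75 sums of a sample and a class were read from Pearson correlations of log2(CPM + 1), over sums of at least 20000 UMIs. The points share libraries and depth, so the values are descriptions. C1qa was nearest to Tyrobp (r = 0.969), Trem2 and Fcgr3, C1qb to Aif1 (0.965), Cd52 and Selplg, and C1qc to Cd53 (0.961), Fcgr3 and Pld4. C3ar1 was nearest to Adgre1 (0.993), Fcrls and Fcgr3. All of these are genes of microglia and other myeloid cells.

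Cfi was nearest to Gm35217 (0.966), Cdh17, a cadherin, at 0.963, and Gm30725 (0.928). Serping1 was nearest to Rarres2 (0.907), Olfml2a and Lama2. The other genes had no such close match. C3 was nearest to Frmd3 (0.681), St18 and Gfra4, C4b to Dio3 (0.704), Cldn19 and Smpdl3b, and Cd59a to Cit (0.718), Nptx1 and Rab27b.

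The positions of the genes in GRCm38 show which lie together. C1qb, C1qc and C1qa share the minus strand of chromosome 4. C3 and C4b both lie on chromosome 17, C3 at 57203970 to 57228136 and C4b at 34728380 to 34743882. Serping1, at 84765387 to 84775444, and Cd59a, at 104095801 to 104115354, lie on chromosome 2, Cfi on chromosome 3 and C3ar1 on chromosome 6.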
